A study of Mus musculus with 18 samples.

Results

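The interferon-induced genes of the mouse hippocampus were followed here as a list of 37 genes known to be switched on by interferons. They were matched to the array by their symbols, and the list was chosen with earlier results of these data known. Of the 37 genes, 35 had at least 1 probe set of their own on the Affymetrix array, 31 had a probe set bright enough to be tested, and the whole array gave tested probe sets for 13121 named genes. Dhx58, Mx1, Mx2 and Sp100 were left out as dim, Isg15 had only a probe set shared with Gm9706, and no probe set was named for Ifi44. The hippocampus was sampled in 3 groups of 6: aged mice with impaired spatial memory, aged mice with unimpaired spatial memory, and young mice, whose memory was also labelled as unimpaired. The aged impaired and the young group therefore differed in age and memory together, whereas the 2 aged groups differed in memory and both unimpaired groups differed in age. The sources used here give no genotype, strain, sex, age in months, treatment or batch. The labels do not say that each sample came from a separate animal, so the p-values measure the spread between these samples, which may be technical in part.

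Interferons are secreted proteins that bind receptors on most cells. Type I interferon acts through the kinases Jak1 and Tyk2 on a complex that contains Stat2 and Irf9, which binds the interferon-stimulated response element in promoters; interferon gamma acts mainly through the gamma-activated site. The induced proteins sense viral RNA, block viral entry, translation or release, tag or cut other proteins, and damp the response again. In brain, microglia are among the cells known to express such genes.

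The promoters of the listed genes are shown first, since these motifs are the known contact of the pathway with its genes. The 300 bases from 250 before to 50 after each annotated start were available from RefSeq, build GRCm38.p6, for 28 of the 37 genes and for 27025 genes in all. The core of the interferon-stimulated response element, searched as GAAANNGAAA on both strands, was found for 15 of the 28 listed genes (53.6%), against 3.99% of all genes. A longer form, GAAANNGAAACT, of which the core is a part, was found for 9 of 28 (32.1%), against 0.303% of all genes. The gamma-activated site, searched as TTCNNNGAA, which reads the same on both strands and can overlap the core, was found for 7 of 28 (25%), against 9.55% of all genes. Ifitm3, Igtp, Bst2 and Eif2ak2 held both the core and the gamma-activated site. Within the 250 bases before the start alone, the core was found for 11 of 28 listed genes (39.3%), against 3.46% of all genes.

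Below, the whole 250 bases before the start are given for Ifit1, which has 2 copies of the core, and for Zc3hav1, which has no match and which had the lowest adjusted p of the listed genes in each comparison with young. For 9 other genes only the surroundings of the core are given. Each sequence runs 5′ to 3′ on the strand of the gene, and capitals mark the core on either strand. Zc3hav1 is on chromosome 6 on the minus strand and Ifit1 on chromosome 19 on the plus strand.
Ifit1, chr19:34640639-34640888, plus strand: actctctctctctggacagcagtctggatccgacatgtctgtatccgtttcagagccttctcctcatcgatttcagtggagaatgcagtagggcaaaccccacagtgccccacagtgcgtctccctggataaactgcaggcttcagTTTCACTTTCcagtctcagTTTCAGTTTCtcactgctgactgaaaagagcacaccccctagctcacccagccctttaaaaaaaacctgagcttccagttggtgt
Zc3hav1, chr6:38354604-38354853, minus strand: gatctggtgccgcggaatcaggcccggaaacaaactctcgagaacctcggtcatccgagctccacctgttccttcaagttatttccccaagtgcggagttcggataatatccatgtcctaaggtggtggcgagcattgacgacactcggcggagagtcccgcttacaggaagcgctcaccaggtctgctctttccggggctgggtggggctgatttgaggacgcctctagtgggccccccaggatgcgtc
Ifit3, chr19:34583358-34583431, plus strand: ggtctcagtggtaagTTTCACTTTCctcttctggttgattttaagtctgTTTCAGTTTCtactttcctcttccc
Ifitm2, chr7:140955983-140956022, minus strand: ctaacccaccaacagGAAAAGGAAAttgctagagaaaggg
Irgm1, chr11:48871421-48871465, minus strand: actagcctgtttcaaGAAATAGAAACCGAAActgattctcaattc
Igtp, chr11:58199507-58199546, plus strand: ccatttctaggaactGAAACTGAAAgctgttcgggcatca
Stat2, chr10:128270261-128270300, plus strand: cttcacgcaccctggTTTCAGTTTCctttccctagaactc
Bst2, chr8:71537572-71537617, minus strand: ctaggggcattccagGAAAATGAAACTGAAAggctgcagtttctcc
Trim30a, chr7:104465205-104465244, minus strand: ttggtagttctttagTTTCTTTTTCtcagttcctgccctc
Gbp2, chr3:142620589-142620628, plus strand: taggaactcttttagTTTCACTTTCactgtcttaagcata
Gbp3, chr3:142559984-142560029, plus strand: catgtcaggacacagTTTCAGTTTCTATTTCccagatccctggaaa

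**Figure D1:**
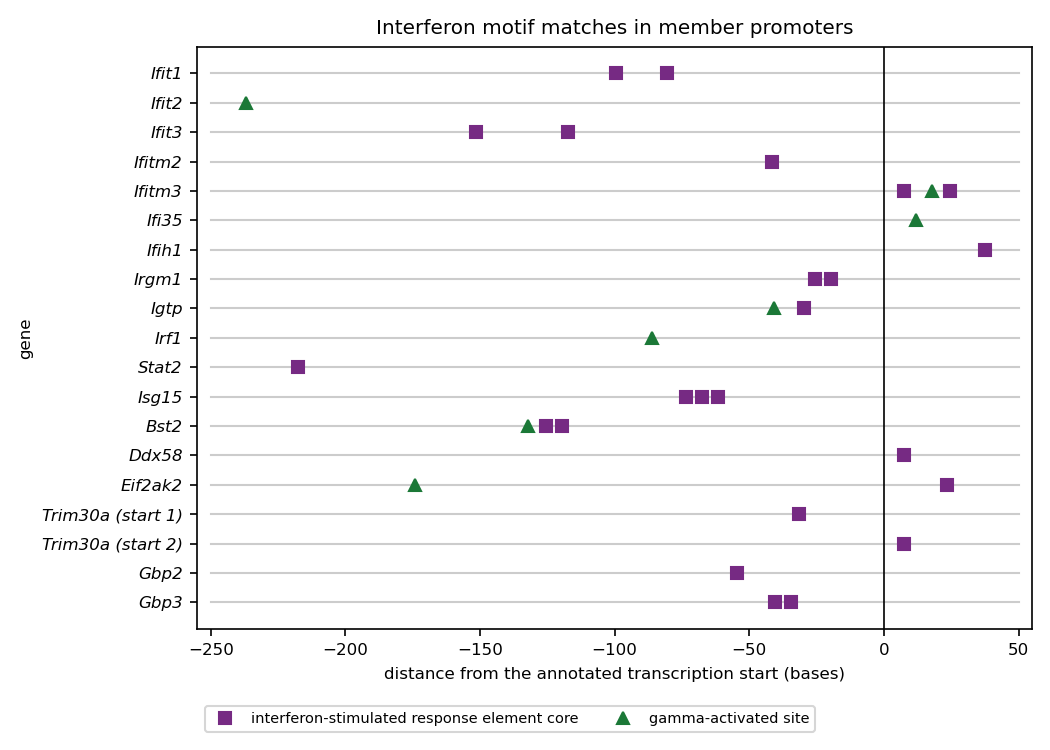
Positions of motif matches in the promoters of the listed genes that hold at least 1 match. The horizontal axis is the distance in bases from the annotated transcription start, squares are cores of the interferon-stimulated response element, triangles are gamma-activated sites, and Trim30a has 2 annotated starts; Ifitm3, Ifih1 and Ddx58 have their cores after the start, as Eif2ak2 does.

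Of the 4 genes called in a comparison below, Ifitm3 held 2 copies of the core and 1 gamma-activated site just after its start, Zc3hav1 and Xaf1 had no match to these letters in their 300 bases, and Rtp4 was not in the promoter table. Among the tested genes with a promoter, the difference between aged impaired and young samples had a median of 0.53 for the 14 with the core and of 0.54 for the 11 without it, on the log2 scale explained next. The range was -0.04 to 1.03 for those with the core and -0.0042 to 1.03 for those without it, so the sets covered nearly the same range. A match describes the letters and does not show binding.

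Every value below is a log2 of the deposited signal after scaling each array to a trimmed mean of 500 and adding 16, so a difference of 1 is a doubling of signal plus 16, and changes of dim genes are understated. Differences carry the standard error of the limma fit after ±. A gene was called where its p, adjusted by Benjamini-Hochberg over 27022 probe sets, was under 0.05. Each gene was read on its tested probe set of highest mean, and the precision is limited by the 18 arrays. In whole tissue, a change in the number of cells that express a gene and a change of its RNA per cell cannot be told apart. Defining markers of hippocampal neurons were bright in every sample, with all 13 of 13 tested and a mean level of 11.54 to 11.75 in aged impaired, 11.62 to 11.94 in aged unimpaired and 11.61 to 11.79 in young samples.

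Nearly all of the listed genes lay higher in the aged impaired samples than in the young ones, and 4 of them passed the test. Earlier results of these data were known when the list was chosen. What part of its excess over all probe sets comes from that choice was not tested. Of the 31 tested genes, 29 had a higher mean in aged impaired than in young samples, against 47.54% of all tested probe sets. The median difference was 0.51, against -0.01 over all probe sets. In limma, 4 of 31 were called higher (12.9%) and 0 lower, where the background was 1.03% of all probe sets called higher and 0.6% called lower. The 4 were Zc3hav1, Rtp4, Ifitm3 and Xaf1. With no filter on dim probe sets only Zc3hav1 was called, and the adjusted p in limma was 0.058 for Rtp4, 0.0718 for Ifitm3 and 0.0726 for Xaf1. Zc3hav1 was also the only gene called with the sample number as a replicate block. At an unadjusted p under 0.05, 22 of 31 passed, against 15.82% of all probe sets. In 4 of 31 genes (Zc3hav1, Ifitm3, Ifi35 and Trim30a) all 6 aged impaired samples lay above all 6 young samples, where the background was 1.12%.

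The mean of the aged unimpaired samples stood between those of the other groups for 25 of 31 genes. The share of all probe sets with such an order is not given here. The aged unimpaired mean was above young for 28 of 31, against 45.81% of all probe sets. The median difference from young was 0.27, against -0.01 over all probe sets. In limma 1 of 31, Zc3hav1, was called higher and 0 lower, where the background was 0.111% called higher and 0.0259% called lower, and 8 of 31 passed at an unadjusted p under 0.05, against 8.193% of all probe sets. Zc3hav1 was also the only gene whose 6 aged unimpaired samples all lay above all young samples, where the background was 0.44%. With both aged groups combined, 30 of 31 were higher than young, against 45.8% of all probe sets. The median difference was 0.37, against -0.01 over all probe sets. Zc3hav1 and Rtp4, 2 of 31, were called higher, where the background was 0.614% called higher and 0.333% called lower. Zc3hav1 alone had all 12 aged samples above all young samples, where the background was 0.211%, and none had them all below, where it was 0.0925%. The comparisons against young share the same 6 young samples. Without aged unimpaired replicate 6, the median difference of aged unimpaired from young was 0.15.

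Between the aged groups no listed gene was called. Impaired lay above unimpaired for 28 of 31 genes, against 51.76% of all probe sets, with a median difference of 0.28 against 0.01 over all probe sets and a range of -0.11 to 0.71. The median was 0.18 without aged impaired replicate 2, 0.11 with the mean of microglia markers as a covariate and 0.09 with that of choroid plexus markers. All 10 of 10 choroid plexus markers lay higher in aged impaired than in aged unimpaired samples, with a median difference of 0.85 and 0 called, and their part in the differences was not tested. In limma 0 of 31 were called in either direction, where the background was 0.0074% called higher and 0.0037% called lower, and 6 of 31 passed at an unadjusted p under 0.05, against 8.086% of all probe sets. None of the 31 had all aged impaired samples above all aged unimpaired samples, where the background was 0.259%. The differences from young in the aged groups were thus not shown to differ from each other for any single gene.

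**Figure D2:**
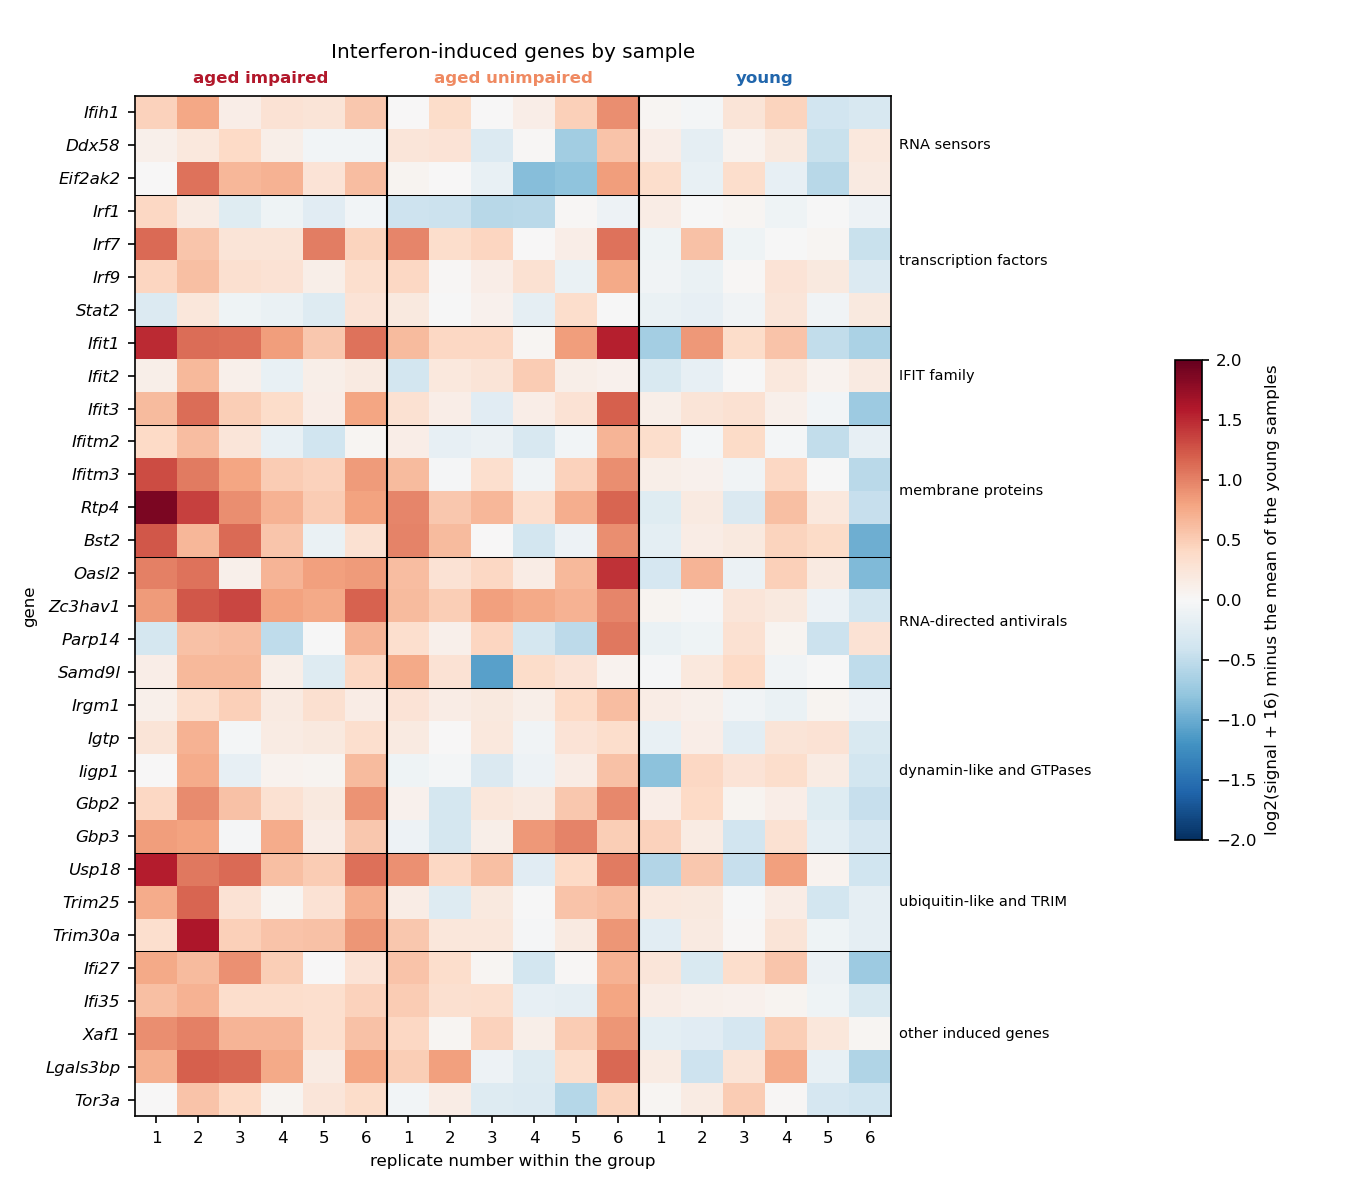
Each tested gene in each of the 18 samples, as log2(signal + 16) minus the mean of the 6 young samples, with genes down the page by role and samples across by group and replicate number. Red is above and blue below the young mean; aged unimpaired replicate 6 is red for nearly all genes, and young replicate 6 is mostly blue.

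Samples of 1 group differed among themselves in many of these genes at once. Aged unimpaired replicate 6 was the highest of its group for 25 of 31 genes, with a median of 0.54 above the group mean. Aged impaired replicate 2 was the highest of its group for 16 of 31 and aged impaired replicate 5 the lowest for 15 of 31. Aged unimpaired replicate 4 was the lowest of its group for 15 of 31, young replicate 6 the lowest for 16 of 31 and young replicate 4 the highest for 12 of 31. The median SD of a listed gene within a group was 0.33 in aged impaired, 0.38 in aged unimpaired and 0.32 in young samples, while over all probe sets it was 0.21 in aged impaired, 0.20 in aged unimpaired and 0.20 in young samples. The spread ran from 0.09 for Irf1 to 0.68 for Ifit1 among the young samples.

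Among the proteins that act on viral RNA, Zc3hav1 changed in every comparison with young. Zc3hav1, the zinc-finger antiviral protein that binds CpG-rich RNA and marks it for decay, had a lowest, median and highest level of 8.88, 9.15 and 9.47 in aged impaired, 8.62, 8.85 and 9.11 in aged unimpaired, and 7.77, 8.14 and 8.38 in young samples. All 12 aged samples lay above all young ones, while the 2 aged groups overlapped. The level was 1.03 ± 0.12 higher in aged impaired than in young samples (limma adjusted p = 2.64e-04), a fold of 2.04, higher in 6 of 6 samples than the young mean. In aged unimpaired samples it was 0.73 ± 0.12 higher than in young (adjusted p = 0.0233, limma), and for both aged groups together 0.88 ± 0.11 higher (adjusted p = 3.81e-04, limma). The call in aged unimpaired samples was lost, with adjusted p between 0.0539 and 0.0715, without any 1 of aged unimpaired replicates 3 and 6 and young replicates 2, 5 and 6. A second probe set of Zc3hav1, with a mean of 5.95 near the brightness limit of 5.92, gave 0.28 ± 0.39 for aged impaired and -0.34 ± 0.39 for aged unimpaired, both minus young, and -0.03 ± 0.34 for both aged groups minus young, with none called. The 2 probe sets differ in call in all 3 comparisons and in sign in all but the first. With the mean of both probe sets, Zc3hav1 was called in none of the 3, with adjusted p = 0.0988 for aged impaired, 0.847 for aged unimpaired and 0.277 for both aged groups minus young in limma.

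Oasl2, a member of the oligoadenylate synthetase-like family, had 7.22, 7.95 and 8.20 in aged impaired, 7.27, 7.64 and 8.57 in aged unimpaired, and 6.24, 7.15 and 7.80 in young samples as lowest, median and highest. The groups overlapped. The difference from young was 0.76 ± 0.25 in aged impaired (adjusted p = 0.145, limma) and 0.60 ± 0.25 in aged unimpaired (adjusted p = 0.545, limma). Parp14, which attaches ADP-ribose to proteins, and Samd9l, an antiviral restriction factor, differed by 0.17 and 0.29 between aged impaired and young samples, and neither was called.

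Of the 4 membrane proteins, Rtp4 and Ifitm3 rose in aged impaired samples against young, while Bst2 and Ifitm2 were not called. Rtp4, known as a chaperone that helps receptors reach the cell surface, had 8.35, 8.71 and 9.72 in aged impaired, 8.19, 8.54 and 9.01 in aged unimpaired, and 7.38, 7.81 and 8.45 in young samples as lowest, median and highest. The highest young sample overlapped both aged groups. The difference was 1.03 ± 0.22 for aged impaired minus young (limma adjusted p = 0.0253, a fold of 2.04) and 0.88 ± 0.19 for both aged groups minus young (limma adjusted p = 0.0371), with 12 of 12 aged samples above the young mean. The call for both aged groups was lost without any 1 of 11 of the 18 samples with an adjusted p of up to 0.103 in limma. For aged unimpaired minus young it was 0.73 ± 0.22 (adjusted p = 0.311, limma).

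Ifitm3, which stops enveloped viruses from fusing in endosomes, had 11.10, 11.45 and 11.94 in aged impaired, 10.57, 11.03 and 11.56 in aged unimpaired, and 10.10, 10.68 and 11.05 in young samples as lowest, median and highest. The aged impaired samples all lay above the young ones, and the aged unimpaired samples overlapped both. The difference was 0.82 ± 0.19 for aged impaired minus young (limma adjusted p = 0.0322, a fold of 1.77), against 0.37 ± 0.19 for aged unimpaired minus young (limma adjusted p = 0.624) and 0.45 ± 0.19 between the aged groups (limma adjusted p = 0.552). Bst2, or tetherin, which holds budding virus at the cell surface, differed by 0.63 ± 0.29 between aged impaired and young samples, and Ifitm2, a relative of Ifitm3, by 0.12 ± 0.19.

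Xaf1, a binding partner of the apoptosis inhibitor XIAP, had 8.84, 9.20 and 9.52 in aged impaired, 8.55, 8.95 and 9.38 in aged unimpaired, and 8.18, 8.43 and 9.01 in young samples as lowest, median and highest. One young sample reached into the range of the aged impaired group. The level was 0.71 ± 0.16 higher in aged impaired than in young samples (limma adjusted p = 0.0323, a fold of 1.63) and the difference was 0.40 ± 0.16 for aged unimpaired minus young (adjusted p = 0.497, limma). Leaving out single samples bore on the 4 calls of this comparison. Only Zc3hav1 was left without aged impaired replicate 2 or without young replicate 1, 3 or 6. With aged impaired replicate 3 or 6 left out, 2 genes remained. Samples whose absence ended a single call are not named here. Over all 31 alternative settings, single samples left out included, the call was lost in 13 for Ifitm3 and 13 for Xaf1. For Rtp4 it was lost in 9 and for Zc3hav1 in 2. Without single samples the adjusted p reached 0.0641 for Rtp4, 0.0751 for Ifitm3, 0.0744 for Xaf1 and 0.0013 for Zc3hav1, all by limma.

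**Figure D3:**
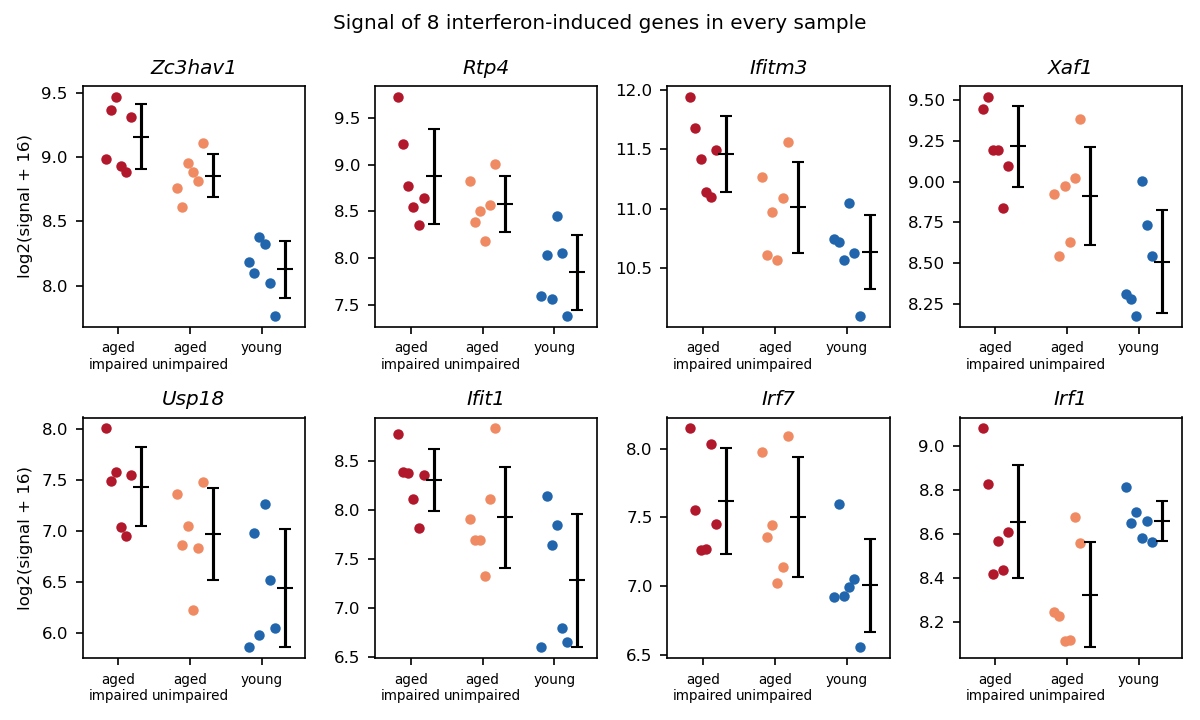
log2(signal + 16) of 8 listed genes in every sample, with aged impaired, aged unimpaired and young from left to right; each point is a sample and the bar is the group mean with its SD over 6 samples. For Zc3hav1 the aged samples all lie above the young ones, whereas for Irf1 the aged unimpaired samples are mostly the lowest.

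None of the 3 tested genes that tag or trim proteins was called in any comparison. Usp18, the protease that removes Isg15 and also restrains the type I interferon receptor, had 6.95, 7.52 and 8.01 in aged impaired, 6.22, 6.96 and 7.49 in aged unimpaired, and 5.86, 6.29 and 7.27 in young samples as lowest, median and highest. Its difference was 0.99 ± 0.26 for aged impaired minus young (adjusted p = 0.0612, limma) with overlapping groups. Trim30a, a tripartite motif protein known in mouse to restrain inflammatory signalling, had 7.21, 7.44 and 8.49 in aged impaired, 6.84, 7.10 and 7.75 in aged unimpaired, and 6.66, 6.84 and 7.13 in young samples. All aged impaired samples lay above the young ones, with a difference of 0.74 ± 0.19 (adjusted p = 0.0543, limma). Its second probe set gave 0.35 ± 0.14. Trim25, the ubiquitin ligase that activates the sensor RIG-I, differed by 0.54 ± 0.18 (adjusted p = 0.148, limma).

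In the IFIT family, whose proteins bind viral RNA and block its translation, none of 3 genes was called. Ifit1 had 7.82, 8.37 and 8.78 in aged impaired, 7.33, 7.80 and 8.84 in aged unimpaired, and 6.60, 7.22 and 8.15 in young samples as lowest, median and highest. The young samples were split, with 3 at 6.60 to 6.80 and 3 at 7.65 to 8.15, and the difference of 1.03 ± 0.28 for aged impaired minus young had an adjusted p of 0.0771 in limma. Ifit3 differed by 0.59 ± 0.22 and Ifit2 by 0.17 ± 0.14.

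None of the 4 transcription factors of the response was called in any comparison. Irf7, the factor that amplifies type I interferon production, had 7.26, 7.50 and 8.15 in aged impaired, 7.02, 7.40 and 8.09 in aged unimpaired, and 6.55, 6.96 and 7.60 in young samples as lowest, median and highest. Its difference from young was 0.61 ± 0.21 in aged impaired (adjusted p = 0.155, limma) and 0.50 ± 0.21 in aged unimpaired (adjusted p = 0.545, limma), and the groups overlapped. Irf9, the DNA-binding part of the complex with Stat2, had 7.66, 7.87 and 8.15 in aged impaired, 7.40, 7.77 and 8.30 in aged unimpaired, and 7.27, 7.52 and 7.81 in young samples, with differences from young of 0.35 ± 0.13 and 0.25 ± 0.13 in aged impaired and aged unimpaired samples. Stat2, its partner, had 7.18, 7.34 and 7.74 in aged impaired, 7.27, 7.49 and 7.80 in aged unimpaired, and 7.29, 7.39 and 7.71 in young samples. The differences of Stat2 from young were -0.04 ± 0.12 and 0.07 ± 0.12 in aged impaired and aged unimpaired samples, and a second probe set gave -0.11 ± 0.27 and 0.00 ± 0.27 for the same 2 comparisons.

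Irf1 and Eif2ak2 had the lowest unadjusted p among the listed genes between the aged groups and were singled out after their values were seen. Irf1, a factor induced by interferon gamma, had 8.42, 8.59 and 9.08 in aged impaired, 8.11, 8.23 and 8.68 in aged unimpaired, and 8.56, 8.65 and 8.81 in young samples as lowest, median and highest. The aged impaired and young means were alike at 8.66, and 4 of the 6 aged unimpaired samples lay below every sample of both other groups. The difference was 0.33 ± 0.12 between aged impaired and aged unimpaired (adjusted p = 0.488, limma) and -0.34 ± 0.12 for aged unimpaired minus young (adjusted p = 0.424, limma). Eif2ak2, the kinase PKR that halts translation on binding double-stranded RNA, had 6.44, 7.07 and 7.51 in aged impaired, 5.59, 6.36 and 7.26 in aged unimpaired, and 5.87, 6.44 and 6.77 in young samples. Its difference between the aged groups was 0.71 ± 0.25 (adjusted p = 0.488, limma), and dimmer probe sets of Eif2ak2 gave 0.23 ± 0.23 and 0.12 ± 0.24. For aged unimpaired minus young the brightest gave -0.15 ± 0.25, whereas the dimmer ones gave 0.30 ± 0.23 and 0.21 ± 0.24. For aged impaired minus young the brightest gave 0.56 ± 0.25 and the dimmer ones 0.53 ± 0.23 and 0.33 ± 0.24.

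Of the RNA sensors, Ifih1 (MDA5) differed by 0.41 ± 0.17 between aged impaired and young samples and Ddx58 (RIG-I) by 0.12 ± 0.17, and none of the 3 tested sensors was called. Ddx58 had 7.48, 7.65 and 7.94 in aged impaired, 6.85, 7.67 and 8.12 in aged unimpaired, and 7.09, 7.65 and 7.76 in young samples as lowest, median and highest, and its dimmer probe set gave -0.07 ± 0.19 for aged impaired minus young. The 3 groups had nearly the same median of Ddx58.

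The interferon-inducible GTPases, some of which attack the vacuoles of intracellular parasites, were higher than young in 5 of 5 tested genes in each aged group, and none was called. Irgm1 had 8.37, 8.54 and 8.76 in aged impaired, 8.39, 8.51 and 8.89 in aged unimpaired, and 8.15, 8.27 and 8.43 in young samples as lowest, median and highest. The 2 aged groups of Irgm1 were close to each other, at -0.03 ± 0.09, and lay 0.26 ± 0.09 and 0.29 ± 0.09 above young for aged impaired and aged unimpaired (adjusted p = 0.167 and 0.344, limma). For Igtp, Iigp1, Gbp2 and Gbp3 the differences of aged impaired from young ran from 0.22 for Iigp1 to 0.56 for Gbp2.

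Among the other induced genes, Ifi35 had 8.76, 8.85 and 9.14 in aged impaired, 8.26, 8.75 and 9.23 in aged unimpaired, and 8.13, 8.51 and 8.57 in young samples as lowest, median and highest. Its aged impaired samples all lay above the young ones, with a difference of 0.47 ± 0.14 (adjusted p = 0.107, limma), and its 2 other probe sets gave 0.47 ± 0.43 and 0.37 ± 0.18. For aged unimpaired minus young, 1 of those probe sets gave -0.03 ± 0.43 and the brightest 0.27 ± 0.14. Lgals3bp, a secreted glycoprotein, and Ifi27, a small mitochondrial protein, differed by 0.80 ± 0.25 and 0.51 ± 0.22 between aged impaired and young samples. Tor3a, an ATPase of the torsin family, had 7.33, 7.62 and 7.88 in aged impaired, 6.74, 7.15 and 7.76 in aged unimpaired, and 6.91, 7.34 and 7.82 in young samples. Its difference was 0.27 ± 0.17 for aged impaired minus young, while its other probe sets gave -0.03 ± 0.16 and -0.14 ± 0.22.

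**Figure D4:**
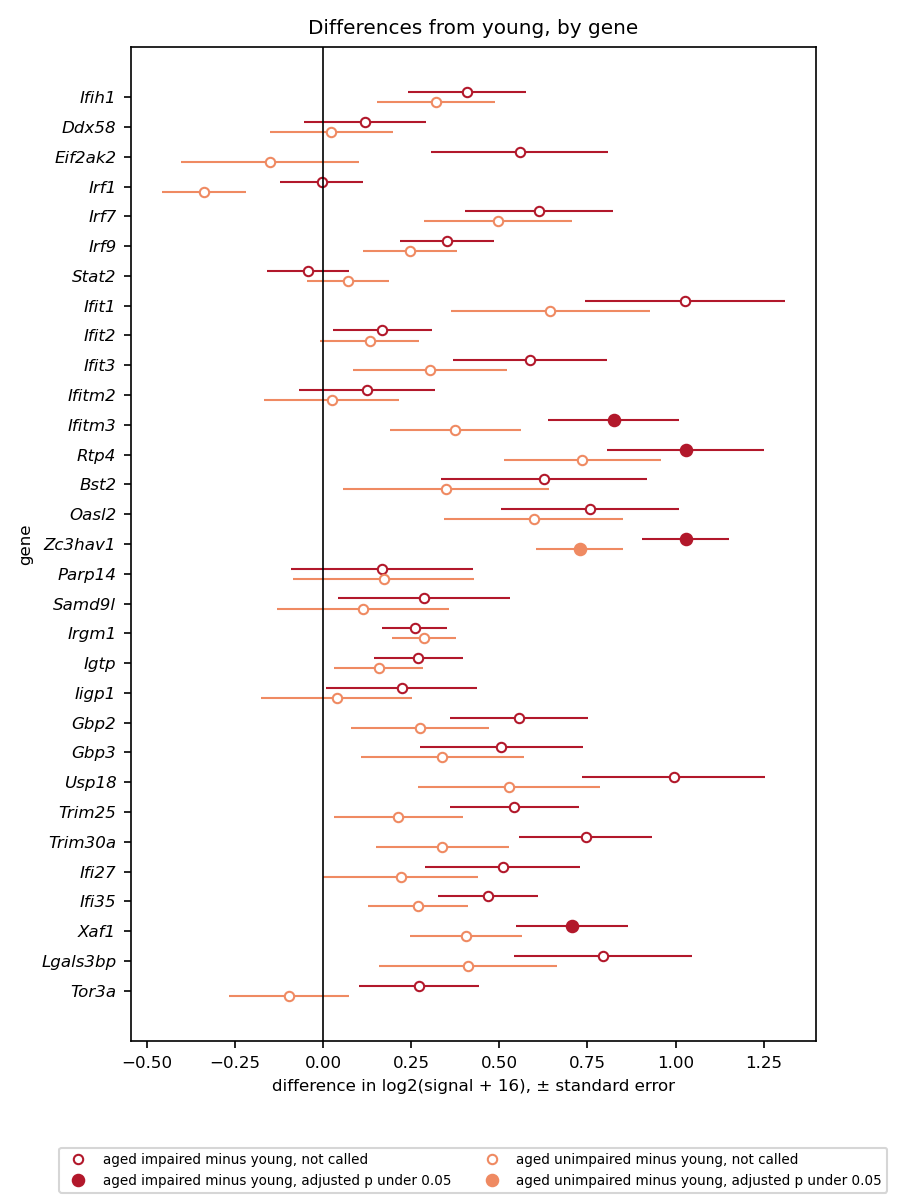
Difference from young in log2(signal + 16) for each tested gene, with its standard error, for aged impaired (dark red, drawn above) and aged unimpaired samples (orange, drawn below). Filled points have an adjusted p under 0.05; the aged impaired points run from -0.04 to 1.03 and the aged unimpaired points from -0.34 to 0.73.

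The 4 dim genes were given no test. Mx1, an antiviral dynamin-like GTPase, averaged 5.14 in aged impaired, 5.26 in aged unimpaired and 5.02 in young samples, and its relative Mx2 averaged 4.71 in aged impaired, 4.56 in aged unimpaired and 4.45 in young samples. Dhx58 (LGP2), a regulator of the RNA sensors, averaged 5.58 in aged impaired, 5.92 in aged unimpaired and 5.68 in young samples. Sp100, a protein of nuclear bodies, averaged 5.47 in aged impaired, 5.84 in aged unimpaired and 5.90 in young samples. The SD within a group of 6 was 0.36 to 0.79 for Dhx58, Mx1 and Sp100 and 0.19 to 0.22 for Mx2. For Dhx58, Mx1 and Sp100 the group means differed by less than the SD of any group of that gene. For Mx2 the highest and lowest group means differed by slightly more than the SD.

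Of the genes upstream in the pathway, the ligands were too dim to test, and none of the others tested was called. Of 12 interferon ligands listed, 10 had a probe set and 0 were bright enough to be tested, with a highest mean of 5.77. Of the receptors and transducers, 9 were tested and 0 called in any comparison. The 2 of lowest p were Ifnar2, a subunit of the type I receptor, and Stat3, a transducer shared with interleukin receptors, which differed by 0.35 ± 0.12 and 0.40 ± 0.14 between aged impaired and young samples. Other probe sets of these genes gave 0.15 and -0.13 for Ifnar2 and -0.15 and 0.15 for Stat3.

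Of 13 tested negative regulators, 0 were called, and the 2 of lowest p were Socs3, an inhibitor of Jak kinases, at 0.64 ± 0.28, and Tnfaip3, an inhibitor of NF-kB signalling, at 0.21 ± 0.11, for aged impaired minus young. In aged unimpaired samples the differences from young were 0.84 ± 0.28 for Socs3 and 0.39 ± 0.11 for Tnfaip3. Of 19 tested genes of nucleic acid sensing, 0 were called, with Unc93b1, the chaperone of endosomal Toll-like receptors, at 0.33 ± 0.11 and Tlr3, a receptor for double-stranded RNA, at 0.32 ± 0.12 for aged impaired minus young. A second Tlr3 probe set gave -0.01.

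A further 59 tested interferon-induced genes outside the 37 showed a smaller median difference. It was 0.14 for aged impaired minus young, with 43 of 59 higher, against 47.54% of all probe sets, and 5 called higher, where the background was 1.03%. Trim30d, a relative of Trim30a, was 1.03 ± 0.18 higher (limma adjusted p = 0.00797), and Xdh, which makes uric acid, was 0.98 ± 0.19 higher (limma adjusted p = 0.0123). Parp9, an ADP-ribosyltransferase family member, was 0.53 ± 0.12 higher, Ifi30, a lysosomal thiol reductase used in antigen presentation, 0.69 ± 0.17 higher and Shisa5, a protein of the endoplasmic reticulum, 0.28 ± 0.07 higher (adjusted p = 0.0303, 0.0437 and 0.0470, limma). Between aged unimpaired and young samples, and between the aged groups, 0 of 59 were called, and for both aged groups against young Trim30d and Xdh were called at 0.83 ± 0.16 and 0.84 ± 0.16. Trim30a and Trim30d are close relatives, and whether their probe sets share signal was not tested.

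Markers of other cells moved with some of these differences. The mean of 15 microglia markers was 10.03 to 10.48 in aged impaired, 9.94 to 10.46 in aged unimpaired and 9.44 to 9.71 in young samples, so all aged samples lay above all young ones. Of the 15, 10 were called higher in aged impaired against young, where the background was 1.03% of all probe sets. In aged unimpaired against young 3 were called higher, where the background was 0.111%. Between the aged groups 0 were called, where the background was 0.0074% called higher and 0.0037% called lower. The mean of the 31 interferon-induced genes was highest, at 8.72 and 8.68, in aged impaired replicate 2 and aged unimpaired replicate 6, the 2 samples with the highest microglia mean, at 10.48 and 10.46. The part of microglia in these differences was not tested. With the microglia mean as a covariate, 0 of the 31 genes were called in any comparison. The share of all probe sets called with the microglia covariate is not given here.

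The mean of 10 choroid plexus markers spanned 7.92 to 11.08 in aged impaired, 7.27 to 10.93 in aged unimpaired and 7.81 to 10.80 in young samples, and was low in aged impaired replicate 5, in aged unimpaired replicates 3, 4 and 5, and in young replicate 6. With that mean as a covariate, 9 of the 31 genes were called between aged impaired and young samples. The share of all probe sets called with this covariate is not given here, so the 9 have no background beside them. Aged impaired replicate 5, aged unimpaired replicate 4 and young replicate 6 had the lowest choroid plexus mean of their groups. They also had the lowest mean of the 31 interferon-induced genes in their groups, at 8.14, 7.91 and 7.60. Both means were highest in aged unimpaired replicate 6 and in young replicate 4, but in different samples among the aged impaired. Of 13 endothelial and mural markers, 0 were called in any comparison, with means of 8.44 to 8.81 in aged impaired, 8.48 to 8.73 in aged unimpaired and 8.45 to 8.61 in young samples. Of 9 meningeal markers, 0 were called, with means of 7.61 to 8.54 in aged impaired, 7.50 to 8.71 in aged unimpaired and 8.32 to 9.07 in young samples. Against young, 0 of these 9 were higher in aged impaired samples, with a median difference of -0.40. In aged unimpaired samples 1 was higher, with a median of -0.76. Of 11 T and NK cell markers with a probe set, 10 were left out as dim, with a highest mean of 5.70. Of 10 astrocyte markers, 7 were higher and 1 was called between aged impaired and young samples, with a median difference of 0.11, and of 9 oligodendrocyte markers 8 were higher and 2 were called, with a median of 0.32. The called ones were Gfap, Mog and Mag. They were 0.77 ± 0.14, 0.46 ± 0.08 and 0.63 ± 0.14 higher (adjusted p = 0.00992, 0.00969 and 0.0249, limma). Over all probe sets, 47.54% were higher and 1.03% were called higher between aged impaired and young samples. Of 8 markers of B cells and blood with a probe set, 4 were tested, with means of 7.44 to 8.32 in aged impaired, 7.30 to 9.31 in aged unimpaired and 6.28 to 8.44 in young samples. Lyz2, a lysozyme of myeloid cells, was the only one of these 4 called. It was 1.59 ± 0.31 higher in aged impaired than in young samples (adjusted p = 0.0130, limma). In both aged groups it was 1.43 ± 0.26 higher than in young (adjusted p = 0.0130, limma). All aged samples of Lyz2 lay above all young ones, where the background was 0.211% of all probe sets. The parts of these cells in the differences of the interferon-induced genes were not tested.

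**Figure D5:**
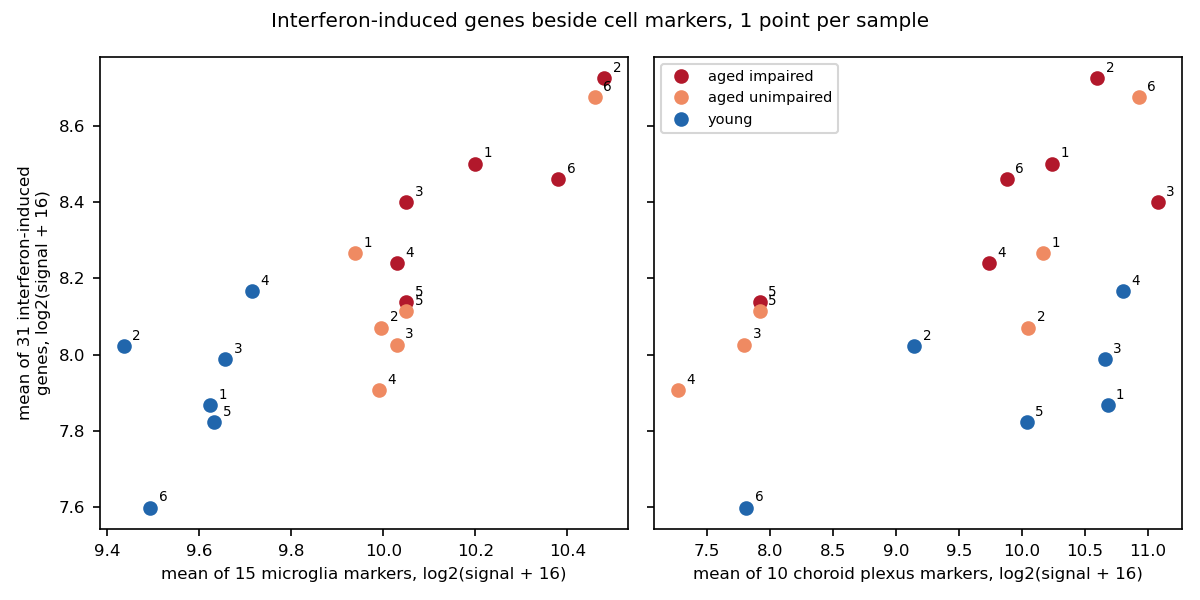
Mean log2(signal + 16) of the 31 tested interferon-induced genes (vertical) against the mean of the microglia markers (left panel) and of the choroid plexus markers (right panel), 1 point per sample with its replicate number. Along the microglia axis the aged and young samples do not overlap, and along the choroid plexus axis 5 samples lie below 8.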

How the data were processed

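Total RNA of 18 hippocampus samples was labelled with biotin and measured on 1 array each. The deposited table holds linear intensity per probe set with a trimmed mean of 150 on every array; per the submitters' processing notes the authors used MAS5, whose version is not given in the sources used here. Each array was rescaled to a mean of 500 after leaving out 2% of values at each end, 16 was added and log2 was taken. Control probe sets (64) were dropped, as were 40% of the rest, those with a mean over all samples below 5.92, which left 27022. Arrays give no read depth, and their number limits the precision; the median deposited signal per array was 23.5 to 30.5.

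Names came from the platform annotation, where 34958 probe sets have 1 symbol, of which 34754 matched the RefSeq table of GRCm38.p6, 932 have several and 9211 none. A gene was read on its tested probe set of highest mean. limma 3.58.1 in R 4.3.3 fitted 3 group means to all samples with empirical Bayes moderation, 2-sided, with Benjamini-Hochberg adjustment over all tested probe sets, and was tested on simulated data. No test was made on the list as a whole. Full values were given for genes called in any comparison, the 10 of lowest unadjusted p for both aged groups against young, Irf7, Irf9 and Stat2, and genes whose probe sets differed in sign or call; in pathway lists, for called genes or else the 2 of lowest p. The members, lists and tests were chosen with earlier results of these data known.

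Other settings tried were offsets of 1 and 64, quantile normalization, a 60% filter or none, a replicate block by sample number, the microglia or choroid plexus mean as a covariate, only the groups compared, the mean of a gene's probe sets, trended and robust moderation, array weights and leaving out each sample. The labels give no pairing by sample number. Deviations of same-numbered samples from their group means correlated at -0.247 to 0.0957, which does not settle whether those samples shared a batch.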

Additional observations from a re-analysis of the deposited data

Results flagged for a closer look

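Among the 93 groups of 6 values formed by the 31 tested genes in the 3 groups, a sample stood apart from the others in 2 by the gap to its neighbour relative to the group's range (Dixon's criterion for 6 values); chance gives about 5% of groups. Ifit3 was lowest in young replicate 6, at 7.917 on the log2 scale with the next young sample at 8.59. Samd9l was lowest in aged unimpaired replicate 3, at 6.539 with the next aged unimpaired sample at 7.703. Neither gene was called in any comparison, by limma at an adjusted p under 0.05.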

How the results depend on the processing

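The number of listed genes called by limma stayed at 0 of 31 between the aged groups under every alternative run. Between aged impaired and young samples, where 4 were called, 1 was called with no filter on dim probe sets and 1 with the sample number as a replicate block (Zc3hav1 in both), 0 with the microglia covariate, 9 with the choroid plexus covariate, and 1 to 5 without single samples. With the mean of a gene's probe sets 3 were called, without Zc3hav1. With only the groups compared, Rtp4 and Xaf1 lost their calls, at adjusted p = 0.0673 and 0.0528 in limma. Between aged unimpaired and young samples, the 1 call became 0 with no filter, with the replicate block, with the microglia covariate and with the mean of a gene's probe sets, 2 with the choroid plexus covariate, and 0 to 1 without single samples. For both aged groups minus young, the 2 calls became 1 with no filter, 1 with the replicate block, 1 with the mean of a gene's probe sets (Rtp4), 0 with the microglia covariate, 8 with the choroid plexus covariate, and 1 to 3 without single samples (1 without aged impaired replicate 2 or 3, aged unimpaired replicate 1, 3, 5 or 6, or any young replicate other than 4). The labels name nothing that same-numbered samples share, and the block changed no other call among the 31 genes. Leaving out aged unimpaired replicate 6 and young replicate 6 together, chosen after seeing the data, left 2, 0 and 1 calls for aged impaired, aged unimpaired and both aged groups minus young. The cause was not tested for any of these changes. Shares of all probe sets called under these settings are not given here, so the changed counts have no background beside them. A filter of 60% left no value for some genes, and only the groups compared gave none for both aged groups.

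With the microglia covariate, whose values do not overlap between aged and young samples, the median difference of the listed genes turned to -0.15, -0.21 and -0.17 for aged impaired, aged unimpaired and both aged groups minus young. Single genes turned too. For aged impaired minus young it was Ifi35 -0.048, Irf9 -0.23, Oasl2 -0.14, Ddx58 -0.15, Eif2ak2 -0.26, Trim30a -0.13 and Tor3a -0.27. For aged unimpaired minus young it was Ifitm3 -0.21, Ifi35 -0.14, Irf9 -0.21, Stat2 -0.15, Oasl2 -0.12, Ddx58 -0.19, Trim30a -0.36 and Xaf1 -0.083. For both aged groups it was Ifitm3 -0.061, Ifi35 -0.10, Irf9 -0.22, Stat2 -0.23, Oasl2 -0.13, Ddx58 -0.17, Eif2ak2 -0.54, Trim30a -0.25 and Tor3a -0.40, and between the aged groups Irf9 -0.013 and Oasl2 -0.023.

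The median moved by over 1.5 times without a change of direction in few cases. Between the aged groups it was 0.11 with the microglia covariate, 0.088 with the choroid plexus covariate and 0.18 without aged impaired replicate 2. For aged unimpaired minus young it was 0.15 without aged unimpaired replicate 6, and without that sample and young replicate 6 together it was 0.10 there and 0.23 for both aged groups minus young.

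Other reversals were mostly of small differences. The choroid plexus covariate gave -0.0016 for Irf9 and -0.028 for Ddx58 between the aged groups, and 0.022 for Eif2ak2 and 0.034 for Tor3a in aged unimpaired minus young. Quantile normalization gave 0.0089 for Irf1 in aged impaired minus young. The mean of a gene's probe sets gave 0.12 for Eif2ak2 in aged unimpaired minus young, against -0.15 on its brightest probe set. It gave -0.022 for Stat2 and -0.030 for Tor3a in both aged groups minus young. Without aged unimpaired replicate 6 and young replicate 6 together, Irgm1 was 0.038 between the aged groups, Ddx58 -0.043 in aged unimpaired minus young and Tor3a -0.047 in both aged groups minus young. Without single samples, Ddx58 ranged from -0.049 to 0.21 between the aged groups, from -0.087 to 0.17 in aged unimpaired and from -0.019 to 0.14 in both aged groups minus young. Irgm1 ranged from -0.072 to 0.038 between the aged groups, and Tor3a from -0.21 to 0.0054 in aged unimpaired minus young. For aged impaired minus young, Irf1 ranged from -0.089 to 0.044 and Stat2 from -0.11 to 0.0070, and Stat2 from -0.019 to 0.064 for both aged groups minus young. Of 2059 alternative values for the 17 genes with full values, 1910 kept their direction and their side of the threshold, 64 lost and 23 gained a call, and 62 changed direction.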
